A study of Mus musculus with 8 samples.

Results

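Laminin chains and integrin subunits were examined in tumor endothelial cells (TECs) of mouse lung tumors. The rule for members uses gene symbols alone and no measured value, and gave 37 genes out of 33641 listed symbols. They were 11 laminin chains, 9 integrins that are mainly leukocyte integrins (*Itgal*, *Itgam*, *Itgax*, *Itgad*, *Itgae*, *Itga4*, *Itgb2*, *Itgb2l* and *Itgb7*) and 17 other integrins. The platelet subunit *Itga2b* was not a member. Cells of the mouse Lewis lung carcinoma (LLC) line, labeled with mCherry, had been injected into the left lung. At day 21 the tumors were microdissected and sorted by FACS for CD45-CD31+ cells, whose RNA was sequenced. The 4 endFoxf1+/- mice were *Pdgfb-iCreER*/*Foxf1* fl/+, in which tamoxifen removes 1 *Foxf1* allele from cells that use the *Pdgfb* promoter. The 4 control mice are given by the labels as control only, and the study's text describes single-transgenic littermates with either *Foxf1* fl/+ or *Pdgfb-Cre* tg/+, and its methods for the LLC model speak of C57Bl/6 wild-type controls. Mice were 6 to 8 weeks old when tamoxifen was given and when LLC cells were injected, the floxed line had been bred into C57Bl/6, and both groups bore LLC tumors. In this model the remaining *Foxf1* allele is intact, and cells without *Pdgfb* promoter activity are not targeted.

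Laminins are trimers of 1 alpha, 1 beta and 1 gamma chain that polymerize into the core network of basement membranes. Integrins are receptors made of an alpha and a beta subunit that join such matrix, or ligands on other cells, to the cytoskeleton. In blood vessels the endothelium itself lays down laminins with *Lama4* and *Lama5* chains and binds them through *Itga6* or *Itga3* paired with *Itgb1*, while leukocytes use *Itgb2* and *Itgb7* partners to leave the vessel.

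The deposited values are TPM, a relative measure of transcript abundance, which are scaled for transcript length and library total, so levels of different genes may be compared within a library. The control libraries are called C1 to C4 here, the endFoxf1+/- libraries H1 to H4. *Foxf1* was at 213, 285, 296 and 331 TPM in C1 to C4 and at 177, 203, 14.04 and 105 TPM in H1 to H4, with no overlap between the groups (two-sided exact permutation test, p = 0.0286, the smallest that 4 libraries against 4 allow). Library H3, and to a lesser degree H4, stood apart from the rest. The geometric mean of 20 endothelial markers stood between 84.5 and 107% of its control average in C1 to C4, and at 104% in H1, 106% in H2, 5.80% in H3 and 56.7% in H4, and none of the markers was at 0. *Ptprc*, which encodes CD45, was at 2.94 to 9.13 TPM in control TECs and at 16.5, 9.93, 91.2 and 6.61 TPM in H1 to H4, although CD45- cells had been sorted. In sorted bulk samples, fewer cells of a type and less RNA per cell cannot be told apart. Values without H3, or without H3 and H4, are given beside those over all libraries where they moved most.

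Differences were tested by limma on log2(TPM + 1) over the 14964 genes with at least 1 TPM in at least 4 libraries, and a difference is always endFoxf1+/- minus control. The added 1 makes changes of weakly expressed genes appear smaller. Of the 37 members, 33 passed this filter, and *Itgae*, *Itga11*, *Itgb8* and *Itgb2l* did not. No member had an adjusted p under 0.05 from limma with Benjamini-Hochberg adjustment, and neither did any other gene (0% of those tested). An unadjusted p under 0.05 was found for 2 of the 33 members, *Lamb1* and *Itgav*, against 5.59% of all tested genes (2.82% higher and 2.77% lower). The same genes were the only tested members whose groups did not overlap, against 5.04% of all tested genes. Both were higher in endFoxf1+/- TECs, as were 2.73% of all tested genes without overlap, while 2.31% were lower. These shares of the members are near the background. Of the 33 members 13 were higher and 20 lower, with a median log2 fold change of −0.12, where the median of all tested genes was −0.17 and 32.0% of them were higher. That median of all genes moved to −0.01 under scaling by the median ratio, so that small differences below are to be read against it. The median of the members turned to 0.08 under that scaling and to 0.04 under quantile normalization, each with 17 higher and 16 lower. Without H3 the median of all genes was 0.01 and that of the members 0.18, with 23 higher and 10 lower.

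**Figure D1:**
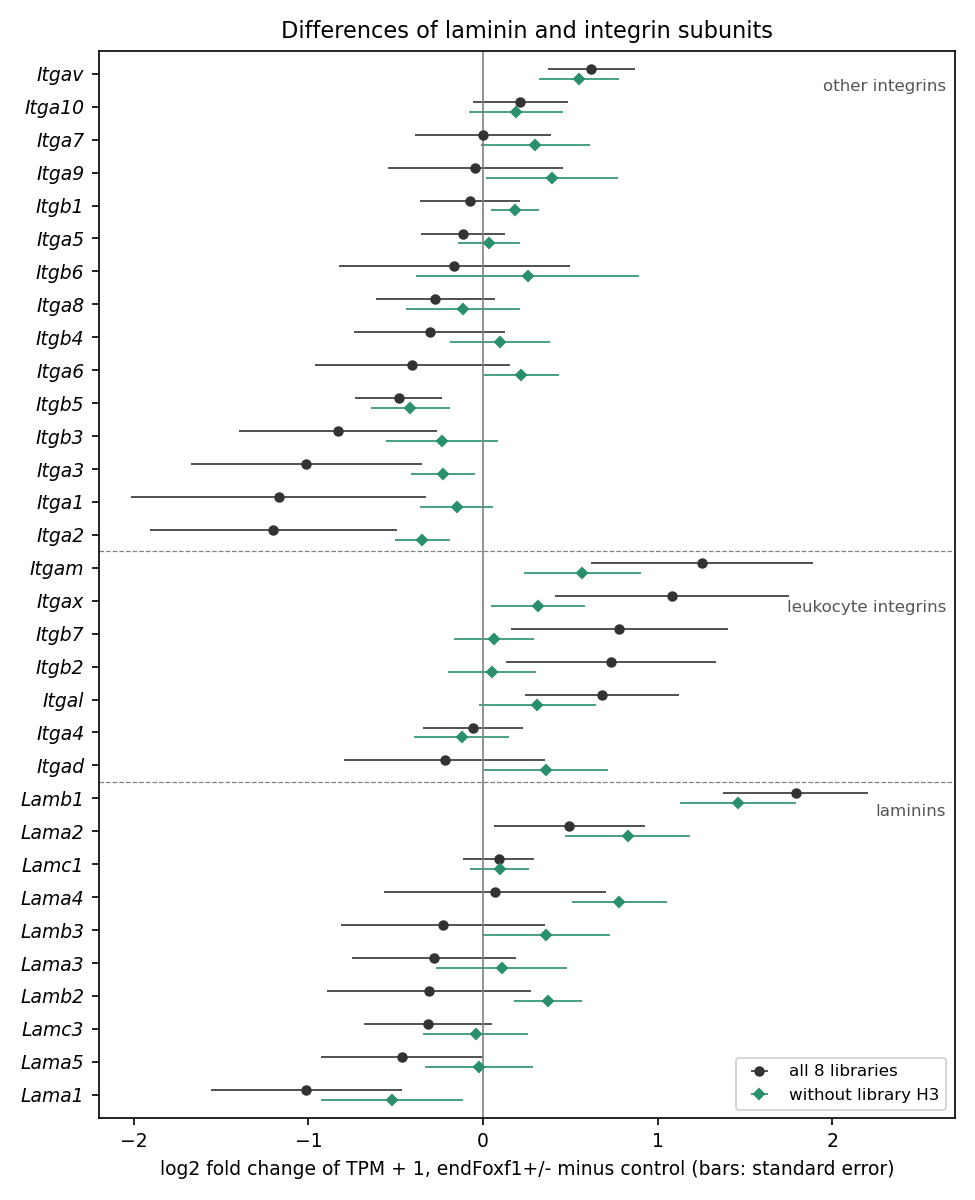
Log2 fold change of TPM + 1 (endFoxf1+/- minus control) with its limma standard error for tested subunits, over all 8 libraries (circles) and without library H3 (diamonds). *Lamb1* lies farthest to the right at 1.79, and 1.46 without H3, while *Itga1*, *Itga2* and *Itga3*, below −1 over all libraries, move to between −0.35 and −0.15 without H3.

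Among the laminin chains, *Lamb1* was higher in every endFoxf1+/- library than in every control library. *Lamb1*, at chr12:31265234-31329644 (GRCm38, plus strand), encodes a beta chain of laminins found in many basement membranes. It was at 15.8, 7.19, 7.38 and 12.5 TPM in C1 to C4 and at 23.7, 24.9, 75.9 and 44.2 TPM in H1 to H4. The lowest endFoxf1+/- library was thus above the highest control library, and H3 was the highest of all. The mean was 42.2 ± 24.4 TPM (SD, n = 4) in endFoxf1+/- TECs against 10.7 ± 4.19 TPM (SD, n = 4) in controls, a ratio of 3.94. The mean of H1 and H2, the libraries with a full endothelial level, was 2.27 times the control mean. The log2 fold change was 1.79 with a standard error of 0.41 (limma adjusted p = 0.790; two-sided exact permutation test, p = 0.0286). It was 1.46 without H3 and 1.18 without H3 and H4, and over all alternatives the limma adjusted p was 0.0413 to 0.975, the lowest with array weights, which lower the influence of H3 and H4.

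Fibroblast transcripts moved with *Lamb1*. The summed TPM of 6 fibroblast markers was 34.8 to 91.9 in control libraries and 166, 106, 1311 and 290 in H1 to H4. Their geometric mean, as percent of its control average, was 66.3 to 149% in control libraries and 241, 143, 786 and 442% in H1 to H4, so that H2 was inside the control range on this scale. All 6 had a positive log2 fold change (32.0% of all tested genes), 3 of them (*Col3a1*, *Dcn* and *Lum*) without overlap (2.73%), and none was at 0 in any library. These 3 made up most of the sum in H3, at 556, 533 and 183 TPM. *Col1a2* went the other way in H3, at 2.39 TPM and below all controls, and its log2 fold change was 0.29. The log2 ratio of *Lamb1* to the 6 markers was 0.54 ± 0.25 (SD, n = 4) in control and 0.55 ± 0.42 (SD, n = 4) in endFoxf1+/- TECs. Their part in the *Lamb1* difference was not tested. Relative to the endothelial markers, *Lamb1* was higher by a log2 difference of 2.98, or 1.68 without H3 and 1.10 without H3 and H4. Both ratios were chosen after the values were seen and are given without a test. The plot of subunits beside marker lists shows *Lamb1* against the summed fibroblast markers.

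The other beta chains had overlapping groups. *Lamb2*, the beta chain that is abundant in vessel walls, was at 68.0, 53.8, 50.1 and 50.2 TPM in C1 to C4 and at 58.6, 67.6, 9.995 and 92.1 TPM in H1 to H4. *Lamb3*, which occurs in epithelial laminin with *Lama3*, was at 54.3, 47.9, 26.2 and 46.3 TPM in C1 to C4 and at 49.1, 34.2, 9.78 and 95.4 TPM in H1 to H4. For both, H4 was the highest and H3 the lowest of the 8 libraries. Their log2 fold changes were −0.31 and −0.23, and turned to 0.37 and 0.36 without H3. *Lamb1* made up 6.61 to 11.4% of the summed beta chain TPM in control libraries and 18.0, 19.6, 79.3 and 19.1% in H1 to H4. The log2 ratio of *Lamb1* to *Lamb2* was −2.33 ± 0.41 (SD, n = 4) in control and −0.23 ± 2.03 (SD, n = 4) in endFoxf1+/- TECs, a difference of 2.10, or 1.09 without H3. This ratio was also chosen after the values were seen and is a description.

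**Figure D2:**
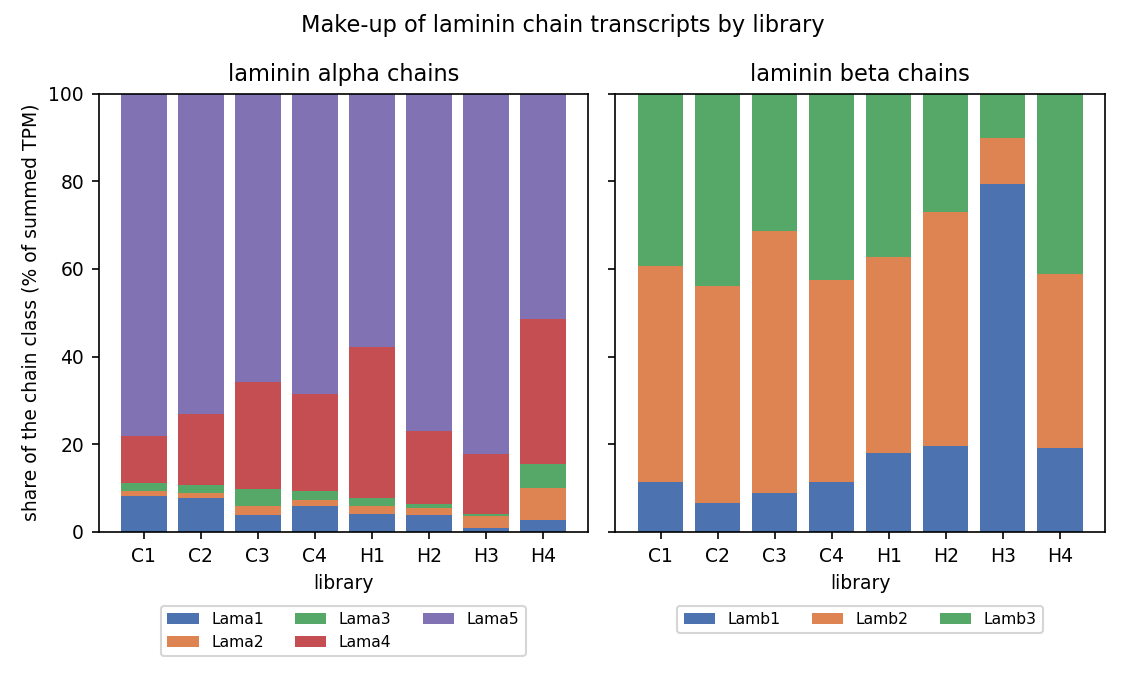
Share of each chain in the summed TPM of the laminin alpha chains (left) and beta chains (right), as percent, for the control libraries C1 to C4 and the endFoxf1+/- libraries H1 to H4. *Lamb1* takes 18.0 to 79.3% of the beta chains in the endFoxf1+/- libraries and at most 11.4% in the controls.

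*Lamc1*, the gamma chain shared by most laminins, differed little between libraries. It was at 52.4, 57.9, 59.3 and 76.3 TPM in C1 to C4 and at 57.2, 68.3, 64.0 and 70.5 TPM in H1 to H4. The groups overlapped, H3 was inside the control range, and the means of 61.5 ± 10.3 and 65.0 ± 5.86 TPM (SD, n = 4 each) did not differ beyond the spread between libraries (two-sided exact permutation test, p = 0.571). The log2 ratio of *Lamb1* to *Lamc1* was on average 1.70 above that of controls in endFoxf1+/- TECs, or 1.36 without H3, a description chosen after the values were seen. *Lamc3* was at 0.202 to 2.45 TPM over the 8 libraries.

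The alpha chains were led by *Lama5*, which together with *Lama4* forms the laminins of endothelial basement membranes. *Lama5* was at 104, 61.7, 43.2 and 60.0 TPM in C1 to C4 and at 66.6, 81.2, 17.7 and 45.9 TPM in H1 to H4. The groups overlapped, and only H3 was below the controls. The log2 fold change of −0.47 became −0.02 without H3 and 0.20 without H3 and H4. *Lama4* was at 14.1, 13.6, 16.0 and 19.4 TPM in C1 to C4 and at 39.6, 17.7, 2.95 and 29.7 TPM in H1 to H4. Its libraries H1 and H4 were above all controls, H2 was within the control range and H3 far below it. The *Lama4* log2 fold change was 0.07 over all libraries (standard error 0.63), 0.78 without H3 (standard error 0.27, limma unadjusted p = 0.0211) and 0.73 without H3 and H4, and it turned to −0.34 without H1 and −0.21 without H4. The log2 ratio of *Lama4* to *Lama5* was −1.97 ± 0.63 (SD, n = 4) in control and −1.43 ± 0.88 (SD, n = 4) in endFoxf1+/- TECs, which overlapped (two-sided exact permutation test, p = 0.4).

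The remaining alpha chains were weakly expressed. *Lama1*, a chain of early and epithelial basement membranes, was at 10.996, 6.45, 2.53 and 5.26 TPM in C1 to C4 and at 4.76, 3.97, 0.189 and 2.51 TPM in H1 to H4. The log2 fold change of *Lama1* was −1.01 (two-sided exact permutation test, p = 0.143) and −0.52 without H3. *Lama2*, the chain of muscle and mesenchymal basement membranes, was at 1.06 to 1.55 TPM in control TECs and at 0.589 to 6.45 TPM in endFoxf1+/- TECs, with H1, H2 and H4 above the highest control and H3 below the lowest. The *Lama2* log2 fold change was 0.49, 0.83 without H3, 0.084 without H4 and 0.38 without H3 and H4. *Lama3* was at 0.105 to 4.84 TPM. Over the 11 laminins, 5 were higher and 6 lower, with a median log2 fold change of −0.23 that became 0.36 without H3 and 0.96 relative to the endothelial markers. Without H3 8 were higher and 3 had an unadjusted p under 0.05 (*Lamb1*, *Lama2* and *Lama4*), against 7.18% of all tested genes (4.83% higher). H3 was the lowest of the 8 libraries for 9 of the 11 laminins and the highest for *Lamb1*.

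**Figure D3:**
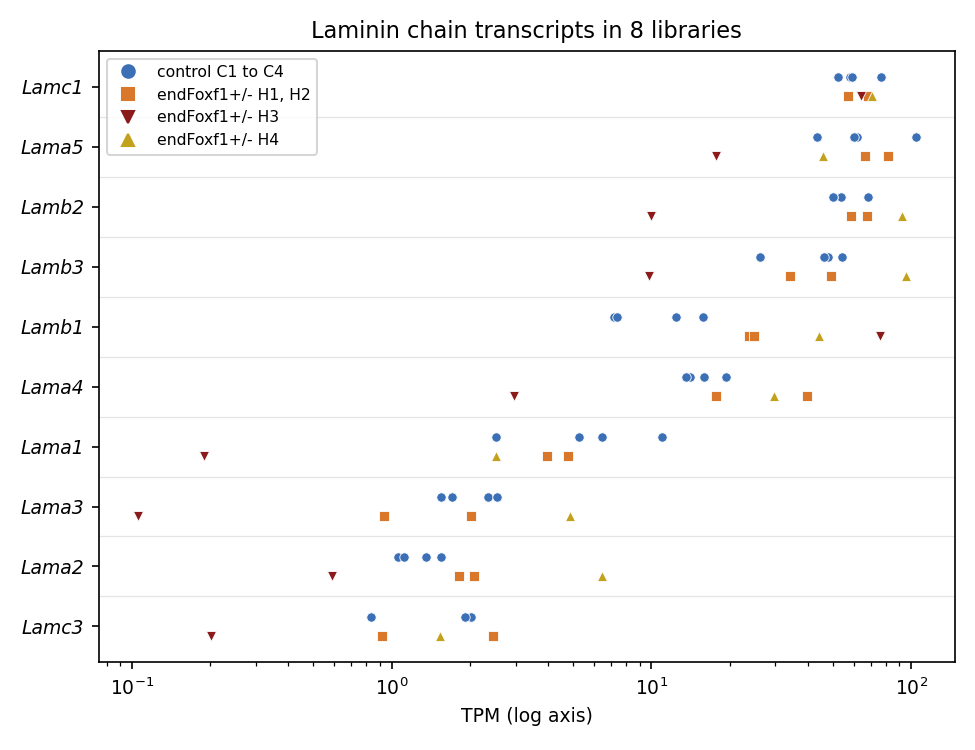
TPM of laminin chains on a log axis, 1 symbol for each library (circles, control; squares, H1 and H2; triangles, H3 and H4). Only for *Lamb1* do all 4 endFoxf1+/- libraries (23.7 to 75.9 TPM) lie above all 4 controls (7.19 to 15.8 TPM), and H3 is the lowest library for most chains.

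Among the integrins other than leukocyte integrins, *Itgav* was the member with groups that did not overlap. *Itgav*, at chr2:83724397-83806916 (GRCm38, plus strand), encodes the alpha subunit of receptors for RGD-containing ligands such as vitronectin, fibronectin and osteopontin. It was at 23.3, 20.1, 18.7 and 21.3 TPM in C1 to C4 and at 25.3, 25.3, 37.8 and 45.6 TPM in H1 to H4. The control libraries lay close together, H1 and H2 were just above them, and H3 and H4 were the highest. The means were 20.8 ± 1.95 TPM (SD, n = 4) and 33.5 ± 9.99 TPM (SD, n = 4). The log2 fold change was 0.62 with a standard error of 0.25 (limma adjusted p = 0.790; two-sided exact permutation test, p = 0.0286). It was 0.55 without H3 and 0.27 without H3 and H4 (limma unadjusted p = 0.0869). Over all alternatives the limma adjusted p was 0.205 to 0.975. Of the summed integrin alpha TPM, *Itgav* made up 2.16 to 2.41% in control libraries and 2.55, 2.59, 13.2 and 5.20% in H1 to H4. Relative to the endothelial markers, *Itgav* was higher by a log2 difference of 1.81, or 0.77 without H3 and 0.20 without H3 and H4. This ratio was chosen after the values were seen and is given without a test. The fibroblast markers, at 241, 143, 786 and 442% of their control average in H1 to H4, were also highest in H3 and H4. Their part in the *Itgav* difference was not tested.

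The regions just before the transcription starts of both genes are shown because *Foxf1* encodes a forkhead factor and these were the members whose groups did not overlap. The sequences are RefSeq windows on GRCm38.p6, plus strand, cut at the first annotated transcript start, chr12:31265043-31265145 for *Lamb1* and chr2:83724147-83724396 for *Itgav*. Capitals mark the forkhead core TAAACA, which was searched on both strands (TGTTTA on the other).
Lamb1: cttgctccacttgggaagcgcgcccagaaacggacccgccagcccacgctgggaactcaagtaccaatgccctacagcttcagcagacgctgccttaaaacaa
Itgav: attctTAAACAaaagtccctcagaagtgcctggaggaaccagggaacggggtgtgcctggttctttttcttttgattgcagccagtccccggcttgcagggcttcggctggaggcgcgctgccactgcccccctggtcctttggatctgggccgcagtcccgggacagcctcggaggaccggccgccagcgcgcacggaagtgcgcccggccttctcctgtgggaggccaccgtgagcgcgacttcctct
The *Itgav* window held 1 such core, 245 bases before the start, and the *Lamb1* window held none. In windows from 250 bases before to 50 bases after the start, the core was found in 13.4% of 32851 promoters and in 3 of the 26 windows that matched 23 members (*Itgav*, *Itgb6* and *Lamb3*), or 11.5%. A match is a description of letters, not of binding.

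None of the beta subunits that can pair with *Itgav* had groups that lay apart. *Itgb5*, which forms a vitronectin receptor, was at 48.8, 41.3, 50.3 and 74.6 TPM in C1 to C4 and at 39.7, 46.6, 32.3 and 32.2 TPM in H1 to H4. Of the endFoxf1+/- libraries 3 were below all controls, with H2 as the exception, and the log2 fold change was −0.48 (two-sided exact permutation test, p = 0.0571), between −0.60 and −0.28 under every alternative. *Itgb3*, the beta subunit of the angiogenesis-associated vitronectin receptor and of the platelet fibrinogen receptor, was at 32.0, 43.0, 37.1 and 40.7 TPM in C1 to C4 and at 26.9, 21.0, 5.36 and 58.4 TPM in H1 to H4. H1, H2 and H3 were below all controls and H4 was above them. Its log2 fold change was −0.83 (two-sided exact permutation test, p = 0.286), −0.23 without H3 and −1.31 without H4 (limma unadjusted p = 0.0268). Without H3 and H4 it was −0.66 (limma unadjusted p = 0.00475). There 12.1% of all tested genes had an unadjusted p under 0.05, and 336 of the 14964 had one and were lower. Platelets carry an integrin that also uses *Itgb3*. The summed TPM of 5 platelet markers was 735 to 1569 in control libraries and 561, 447, 341 and 837 in H1 to H4, so that H4 was inside the control range and the other endFoxf1+/- libraries were below it. Their geometric mean was 67.7 to 132% of its control average in control libraries and 46.0, 37.9, 18.9 and 51.2% in H1 to H4, all below the controls. All 5 were lower with a limma unadjusted p under 0.05 (2.77% of all tested genes) and 3 of them without overlap (2.31%), and none was at 0. Their part in the *Itgb3* values was not tested. *Itgb6* was at 0.450 to 13.1 TPM, with its highest value in H4, and *Itgb8* was at or below 0.570 TPM. The geometric mean of 11 epithelial markers was 71.1, 26.7, 28.6 and 194% of its control average in H1 to H4. In control libraries it was 60.9 to 203%, the highest in C3. The part of these markers in the *Itgb6* and *Lamb3* values was not tested.

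By mean TPM over all 8 libraries, the highest of all members was *Itga6*, a laminin receptor subunit, followed by its partner *Itgb1*. In H3 alone *Itgb1* was above *Itga6*. *Itga6* was at 554, 388, 301 and 385 TPM in C1 to C4 and at 496, 491, 81.0 and 407 TPM in H1 to H4. *Itgb1*, the beta subunit shared by most matrix receptors, was at 332, 291, 276 and 319 TPM in C1 to C4 and at 369, 346, 169 and 322 TPM in H1 to H4. In both cases H1, H2 and H4 lay within or above the control range, and H3 was far below it. Their log2 fold changes were −0.41 and −0.07, and 0.22 and 0.18 without H3. H3 held 19.9% of the control mean of *Itga6* but 55.4% of that of *Itgb1*, against 5.80% for the endothelial markers. *Itgb1* made up 69.5 to 75.3% of the summed beta subunits in control libraries and 48.7 to 78.6% in endFoxf1+/- libraries.

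*Itga3*, which also encodes a laminin receptor subunit, was at 147, 121, 172 and 200 TPM in C1 to C4 and at 128, 138, 14.4 and 136 TPM in H1 to H4. Here H1, H2 and H4 lay close together in the lower part of the control range. The log2 fold change was −1.01 (two-sided exact permutation test, p = 0.143) and −0.23 without H3. The remaining laminin receptor subunits were low, *Itga7* at 1.47 to 7.59 TPM and *Itgb4* at 1.36 to 8.91 TPM. Of these 4 laminin receptor subunits 3 were lower, with a median log2 fold change of −0.36 that became 0.16 without H3.

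The collagen receptor subunits *Itga1* and *Itga2* were far lower in H3 than in any other library. *Itga1* was at 205, 194, 136 and 176 TPM in C1 to C4 and at 185, 176, 8.39 and 121 TPM in H1 to H4. In H3 it was at 4.72% of the control mean, close to the level of the endothelial markers in that library, and in H4 at 68.2%. Its log2 fold change of −1.17 (two-sided exact permutation test, p = 0.2) became −0.15 without H3 and 0.04 without H3 and H4. *Itga2* was at 43.8, 51.6, 49.4 and 47.8 TPM in C1 to C4 and at 36.4, 45.0, 2.62 and 32.4 TPM in H1 to H4. H1, H3 and H4 were below all controls and H2 was inside their range. Its log2 fold change was −1.20 (two-sided exact permutation test, p = 0.0571), −0.35 without H3 and −0.24 without H3 and H4. *Itga10* was at 0.715 to 2.09 TPM and *Itga11* at or below 0.547 TPM.

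Of the remaining integrins in this list, *Itga5*, the fibronectin receptor subunit, was at 36.6 to 49.1 TPM in control and 28.6 to 51.0 TPM in endFoxf1+/- TECs. *Itga9*, a subunit known from lymphatic endothelium, was at 16.4 to 32.1 TPM in control TECs and at 29.3, 19.3, 8.92 and 60.6 TPM in H1 to H4. *Itga8*, typical of mesenchymal cells, was at 1.19 to 4.33 TPM. Over the 15 tested integrins of this list, 3 were higher and 12 lower, with a median log2 fold change of −0.27, which was 0.92 relative to the endothelial markers and 0.10 without H3, with 9 higher and 6 lower. H3 was the lowest library for 12 of the 17.

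**Figure D4:**
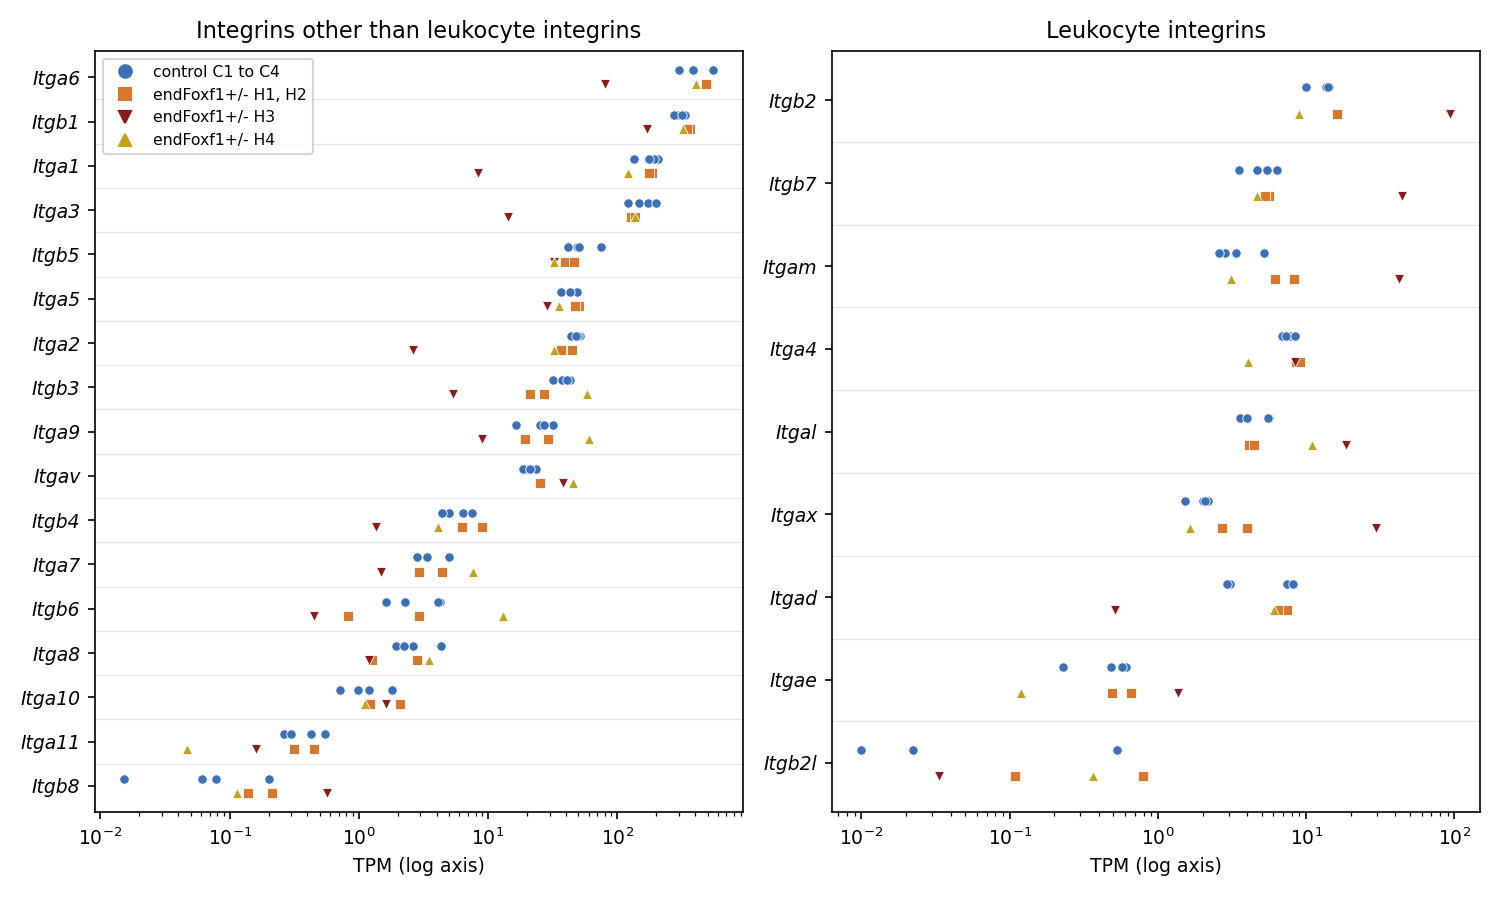
TPM of the 17 integrins other than leukocyte integrins (left) and the 9 leukocyte integrins (right) on log axes, 1 symbol for each library, with a TPM of 0 drawn at 0.01. H3 (downward triangle) is the lowest library for 12 of the 17 integrins on the left and the highest for 6 of the 9 leukocyte integrins on the right, and *Itgav* is the tested integrin whose endFoxf1+/- libraries (25.3 to 45.6 TPM) are all above the controls (18.7 to 23.3 TPM).

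The leukocyte integrins showed the opposite picture in H3. *Itgb2*, the common beta subunit of the leukocyte-specific integrins, was at 13.5, 14.3, 14.004 and 10.03 TPM in C1 to C4 and at 16.3, 16.2, 93.8 and 8.95 TPM in H1 to H4. H3 was over all other libraries, H1 and H2 were slightly above the controls and H4 below them. The log2 fold change was 0.73 (two-sided exact permutation test, p = 0.343), and 0.05 without H3. Leukocyte transcripts other than integrins moved with it. The summed TPM of 7 pan-leukocyte markers was 109 to 177 in control libraries and 202, 219, 1273 and 151 in H1 to H4, all 7 were higher (32.0% of all tested genes), 2 of them (*Cd53* and *Rac2*) without overlap (2.73%), and none was at 0. That of 11 myeloid markers was 1531 to 5271 in control libraries and 2829, 2173, 10765 and 4857 in H1 to H4, most of it *Lyz2* in every library. The geometric mean of these markers, which weighs them alike, was 53.0 to 130% of its control average in control libraries and 143, 189, 1177 and 136% in H1 to H4, without overlap. All 11 were higher (32.0% of all tested genes), 2 of them without overlap (2.73%), and none was at 0. Their part in the differences of the leukocyte integrins was not tested.

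Set against the pan-leukocyte markers of its own library, *Itgb2* was lower in endFoxf1+/- TECs. Its log2 difference from the mean of these markers was 0.09, −0.0047, 0.04 and 0.34 in C1 to C4 and −0.22, −0.37, −0.35 and −0.28 in H1 to H4. Every endFoxf1+/- library was below every control library, and H3 lay in the middle of its group. The means of 0.11 ± 0.15 and −0.30 ± 0.07 (SD, n = 4 each) differed by −0.42 (two-sided exact permutation test, p = 0.0286). Without any 1 library the difference was −0.46 to −0.34, each with p = 0.0571 in the exact permutation test, the smallest that 3 against 4 allow. This ratio compares *Itgb2* with other leukocyte transcripts and does not give its amount per leukocyte.

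*Itgam*, the alpha subunit of the complement receptor on macrophages and neutrophils, was at 5.16, 3.36, 2.85 and 2.56 TPM in C1 to C4 and at 8.33, 6.17, 42.4 and 3.09 TPM in H1 to H4. H1, H2 and H3 were above all controls, and H4 was inside their range. Its log2 fold change was 1.25 (two-sided exact permutation test, p = 0.0857), 0.57 without H3 and 0.90 without H3 and H4, where its limma unadjusted p was 0.0104 and 12.1% of all tested genes had one under 0.05 (9.87% higher). *Itgax*, the alpha subunit typical of dendritic cells, was at 2.02, 2.18, 2.07 and 1.52 TPM in C1 to C4 and at 2.69, 4.01, 29.5 and 1.64 TPM in H1 to H4. The same 3 libraries were above all controls, with a log2 fold change of 1.08 (two-sided exact permutation test, p = 0.114), and 0.32 without H3.

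*Itgal*, the alpha subunit of the lymphocyte function-associated antigen, was at 3.55, 5.60, 5.57 and 3.99 TPM in C1 to C4 and at 4.14, 4.47, 18.5 and 10.9 TPM in H1 to H4. Unlike *Itgam* and *Itgax* it was high in H3 and H4 and inside the control range in H1 and H2. For *Itgal* the log2 fold change of 0.68 was 0.31 without H3 and −0.08 without H3 and H4. *Itgb7*, a subunit of gut-homing and mucosal lymphocyte integrins, was at 5.42, 3.51, 6.36 and 4.68 TPM in C1 to C4 and at 5.58, 5.25, 44.0 and 4.68 TPM in H1 to H4. H3 alone was outside the control range, and the log2 fold change of 0.78 became 0.06 without it.

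*Itga4*, the partner of *Itgb1* in the receptor for *Vcam1*, did not follow the other leukocyte integrins. It was at 6.86, 7.79, 7.36 and 8.35 TPM in C1 to C4 and at 8.57, 9.07, 8.42 and 4.07 TPM in H1 to H4. H4 was the lowest and the other endFoxf1+/- libraries were slightly above the controls, with a log2 fold change of −0.06 (two-sided exact permutation test, p = 1). *Itga4* shares exon sequence with *Cerkl* on the opposite strand, which was at 0 to 4.35 TPM. *Itgad* was at 7.44, 3.05, 2.92 and 8.11 TPM in C1 to C4 and at 7.40, 6.42, 0.510 and 6.04 TPM in H1 to H4, so that H3, the library with the most leukocyte transcripts, had the least *Itgad*. *Itgad* shares exon sequence with *Cox6a2* on the opposite strand, at 2.10 to 28.7 TPM. Whether the authors' counting used strand is not given in the sources used here, so that reads of *Itgad* and *Itga4* may not be told apart from those of these neighbours. Of the other members given library by library, *Itgav* shares exon sequence with *Gm13684* on the opposite strand. *Itgam* and *Itga1* share it with *Gm49368* and *Gm49395* on the same strand. None of these 3 neighbours is among the listed symbols. *Itgae*, the mucosal T cell subunit, was at 0.120 to 1.37 TPM with H3 the highest, and *Itgb2l* was at 0 to 0.791 TPM. Over the 7 tested leukocyte integrins 5 were higher and 2 lower, with a median log2 fold change of 0.73, which was 0.31 without H3 and −0.42 relative to the pan-leukocyte markers.

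**Figure D5:**
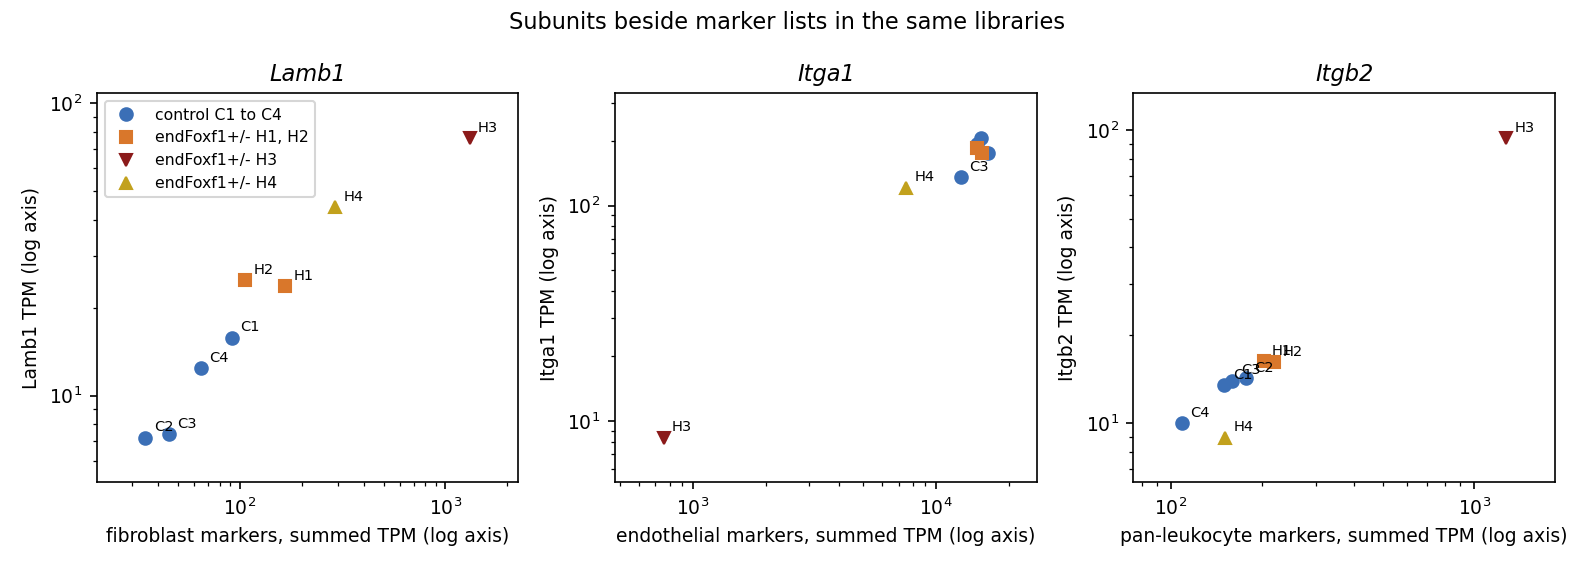
TPM of *Lamb1*, *Itga1* and *Itgb2* against the summed TPM of the fibroblast, endothelial and pan-leukocyte markers in the same library, on log axes (circles, control; squares, H1 and H2; triangles, H3 and H4). H3 lies at the far end of each panel, with *Lamb1* at 75.9 TPM beside 1311 TPM of fibroblast markers, *Itga1* at 8.39 TPM beside 757 TPM of endothelial markers, and *Itgb2* at 93.8 TPM beside 1273 TPM of pan-leukocyte markers.

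Partners of laminins in the basement membrane were read from a list of 16 genes, of which 14 were tested. With limma, none passed after adjustment, and 2 reached an unadjusted p under 0.05 (5.59% of all tested genes), both higher and without overlap (2.73% of all tested genes). *Hspg2*, the proteoglycan perlecan, was at 11.2, 5.63, 5.74 and 10.2 TPM in C1 to C4 and at 21.1, 13.2, 24.7 and 47.9 TPM in H1 to H4 (log2 fold change 1.502, 1.49 without H3 and 1.001 without H3 and H4). *Col18a1*, whose product gives rise to endostatin, was at 16.2, 7.86, 6.12 and 12.0 TPM in C1 to C4 and at 21.8, 22.6, 53.2 and 23.1 TPM in H1 to H4 (log2 fold change 1.41, 1.11 without H3 and 1.09 without H3 and H4). The fibroblast markers given above moved with both genes, and their part in these differences was not tested. In both, as in *Lamb1*, C1 and C4 were the highest controls. Of the 14 genes 6 were higher and 8 lower, with a median of −0.26. Without H3 the median was 0.29, 11 were higher, and 5 of these (*Col4a1*, *Nid2*, *Hspg2*, *Col18a1* and *Sparc*) had a limma unadjusted p under 0.05, against 4.83% of all tested genes. The non-integrin laminin receptors, 7 tested, had 3 members higher and 4 lower with a median of −0.16, which was 0.08 without H3, with 5 higher, and 0.03 under scaling by the median ratio. None had an unadjusted p under 0.05.

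Other ligands of integrins were read from a list of 13 genes, of which 12 were tested. None passed after adjustment. With an unadjusted p under 0.05 from limma, 3 were higher (2.82% of all tested genes) and 2 lower (2.77%). Without overlap, 2 were higher (2.73%) and 3 lower (2.31%), the latter 4 under scaling by the median ratio and 2 under quantile normalization. *Fn1*, fibronectin, a ligand of receptors with *Itgav* and *Itga5*, was at 52.3, 32.8, 33.4 and 51.7 TPM in C1 to C4 and at 135, 92.5, 811 and 265 TPM in H1 to H4 (log2 fold change 2.43, and 1.41 without H3 and H4). *Spp1*, osteopontin, another ligand of *Itgav* receptors, was at 61.7 to 107 TPM in control TECs and at 203, 151, 1414 and 136 TPM in H1 to H4 (log2 fold change 1.76, and 1.10 without H3 and H4). The fibroblast and myeloid markers given above were also at their highest in H3, and their part in the *Fn1* and *Spp1* differences was not tested. The third was *Tnc*, tenascin C, with overlapping groups and a log2 fold change of 1.09, or 0.57 without H3 and H4. *Vtn*, vitronectin, was at 1.65, 2.04, 4.44 and 2.39 TPM in C1 to C4 and at 1.19, 0.496, 0.0959 and 0.664 TPM in H1 to H4 (log2 fold change −1.16). *Postn*, periostin, was at 24.7 to 41.7 TPM in control TECs and at 3.48 to 24.3 TPM in endFoxf1+/- TECs (log2 fold change −1.28, and −0.75 without H3). The geometric mean of 7 mural cell markers was 84.1 to 108% of its control average in control libraries and 81.3, 69.1, 40.2 and 50.8% in H1 to H4. Of these markers 6 were lower and 1 higher, and their summed TPM overlapped between the groups. Their part in the *Vtn* and *Postn* differences was not tested. *Icam1*, a ligand of *Itgb2* integrins, was at 203 to 246 TPM in control TECs and at 183, 144, 19.6 and 194 TPM in H1 to H4, all below the controls (log2 fold change −1.17, and −0.40 without H3). Without H3 all 6 ligands named here kept their direction. The list as a whole had 4 members higher and 8 lower.

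Activators of integrins and proteins of the adhesion complex were read from a list of 22 genes, of which 21 were tested, and 17 of these were lower, with a median log2 fold change of −0.52. The median was −0.07 without H3, with 15 of 21 lower. An unadjusted p under 0.05 from limma was found for *Tln2*, talin 2, at 40.9 ± 8.54 against 23.0 ± 9.32 TPM (SD, n = 4 each; log2 fold change −0.86, and −0.65 without H3), and for *Fermt3*, the kindlin of blood cells and platelets, at 20.2 ± 4.98 against 11.9 ± 3.57 TPM (SD, n = 4 each; log2 fold change −0.73). Both were lower with overlapping groups, where 2.77% of all tested genes were lower at that threshold. The platelet markers given above were also lower, and their part in the *Fermt3* difference was not tested. All 20 endothelial markers were lower, with a median of −1.09, and 16 of them without H3, with a median of −0.16. Their part in the differences of the adhesion list was not tested. Another 3 genes of the adhesion list, *Fermt2*, *Parvb* and *Bcar1*, were lower in every endFoxf1+/- library than in every control library, against 2.31% of all tested genes. Their log2 fold changes were −0.87, −0.86 and −0.41 (limma unadjusted p = 0.127, 0.112 and 0.151). These became −0.27, −0.29 and −0.18 without H3, and −0.08, −0.31 and −0.20 without H3 and H4. Some gaps were narrow, with *Fermt2* at 208 and 206 TPM in H1 and H2 against a lowest control of 209 TPM. *Bcar1* was at 38.7 TPM in H4 against a lowest control of 39.3 TPM. These 3 genes encode a kindlin and scaffold proteins of the adhesion complex. This count of 3 was 2 under scaling by the median ratio and 1 under quantile normalization, and under both *Fermt3* no longer had an unadjusted p under 0.05 while *Tln1*, talin 1, had one.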

How the data were processed

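RNA from sorted CD45-CD31+ cells of 4 control and 4 endFoxf1+/- mice, made into libraries with a Nextera XT kit, was measured by RNA-seq. The authors deposited TPM, one value per gene symbol and library. The submitters' processing notes name TopHat, Cufflinks, Subread, DESeq2 and GRCm38/mm10. The authors compared groups with DESeq2. The legend of the paper's RNA-seq panel for *Foxf1* and *Fzd4* gives fewer samples per group than the 4 used here. Which libraries that panel used is not stated. The versions, the roles of the other tools and whether counting used strand are not given in the sources used here. TPM keep no depth, so no counting error was computed and precision rests on the spread between libraries.

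Values were analysed as log2(TPM + 1) in R 4.3.3 with limma 3.58.1 (lmFit, eBayes with an intensity trend) over genes with at least 1 TPM in at least 4 of the 8 libraries, with Benjamini-Hochberg adjustment over all of them and a threshold of 0.05. The study's DESeq2 test needs read counts and was not repeated. Single values were compared by exact two-sided permutation tests over 70 assignments. The fit was tested on data simulated with the control means and within-group spread of these libraries. At an adjusted p under 0.05 from limma it called 7 of 100 genes with a log2 change of 1. It called 48 of 100 with a log2 change of 2, and 6 of 14764 unchanged genes. A gene that was not called may therefore still differ. Groups came from the genotype labels, and libraries are numbered in the order of the labels. Coordinates and exon overlaps came from GENCODE on GRCm38, promoter windows from RefSeq on GRCm38.p6.

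Values in every library are given for members whose groups did not overlap, members with an unadjusted p under 0.05 and the 4 highest members of each list, 14 in all. A further 8 (*Lama1*, *Lama4*, *Itga2*, *Itgb3*, *Itgb5*, *Itgad*, *Itgax* and *Itgal*) were chosen after their values were seen. The rule for members reads symbols only, but this gene family and the lists, markers and pathways included, were chosen with earlier results of these data known. The fits and the values of members were recomputed with 0.1 or 5 in place of the pseudocount, unfiltered or above 5 TPM, with quantile normalization, median ratio scaling or array weights, with eBayes lacking the trend, leaving out every library once, and leaving out H3 and H4 together. Ratios were recomputed with the other pseudocounts and with libraries left out, the other lists with quantile normalization, median ratio scaling and without H3 or H3 and H4. The medians of the member lists were also taken relative to endothelial or pan-leukocyte markers. The ratios of *Lamb1* to *Lamb2*, *Lamc1* and fibroblast markers, and *Lamb1* and *Itgav* relative to endothelial markers, were added after seeing the data. A member is counted in the lists and not reported by name here.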

Additional observations from a re-analysis of the deposited data

Results flagged for a closer look

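The libraries within each group of 4 were compared on log2(TPM + 1), for the 22 members given library by library and the planned ratios. Of these 48 comparisons, 8 had 1 library far from its group by Dixon's 95% criterion, which chance meets in about 1 of 20 groups. Library H3 was the distant one in 6 of them, at 8.39 TPM for *Itga1*, 2.62 TPM for *Itga2*, 14.4 TPM for *Itga3*, 81.0 TPM for *Itga6* and 0.510 TPM for *Itgad*, each below the other endFoxf1+/- libraries, and at 44.0 TPM for *Itgb7*, above them. Library H4 was distant for *Itga4*, at 4.07 TPM, and control library C4 for *Itgb2*, at 10.03 TPM, both below the rest of their group. Of the 22 members 8, *Itga2* and *Itgad* among them, were chosen after their values were seen. The flags of H3 also share 1 library, so the chance rate does not hold for the count of flags.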

How the results depend on the processing

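No paired analysis was possible because the labels give each mouse a number of its own and tie no control mouse to an endFoxf1+/- mouse. TPM hold no depth, and with 4 libraries in each group and H3 far from the rest, single differences are known only roughly. The p-values measure the spread between these 8 libraries.

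Of 372 log2 fold changes of the 22 members under other normalizations, filters, pseudocounts, fits and left-out libraries, 342 kept their direction and side of the threshold, 29 changed direction and 1, *Lamb1* with array weights (1.30, limma adjusted p = 0.0413), passed the threshold. For 11 members no value changed direction. Array weights, which gave H3 a weight of 0.0643 and H4 of 0.178, raised the number of genes with an adjusted p under 0.05 from limma from 0 to 148, 1 of them a member, and the members with an unadjusted p under 0.05 from 2 to 6 of 33, where 19.2% of all tested genes had one. The log2 fold changes that turned were then 0.13 for *Itga4*, 0.32 for *Itga6*, 0.25 for *Itgb1*, 0.16 for *Lama5*, 0.17 for *Lamb2*, 0.053 for *Lamb3*, −0.028 for *Lamc1*, 0.50 for *Itgad* and −0.084 for *Itgal*. Without H3 and H4 3 genes and 0 members passed, 5 of 33 members had an unadjusted p under 0.05 (12.1% of all tested genes), and values turned to 0.040 for *Itga1*, 0.19 for *Itga4*, 0.31 for *Itga6*, 0.23 for *Itgb1*, 0.20 for *Lama5*, 0.19 for *Lamb2*, 0.42 for *Itgad* and −0.079 for *Itgal*, and the *Itgb2* ratio was −0.41 (exact permutation p = 0.133, the smallest for 2 against 4). Quantile normalization turned *Itga4* to 0.053 and *Itgb1* to 0.11. Scaling by the median ratio turned them to 0.12 and 0.12 and left 1 member, *Lamb1*, with an unadjusted p under 0.05. Relative to endothelial markers the median of the laminins turned to 0.96 and that of the integrins other than leukocyte integrins to 0.92, and relative to pan-leukocyte markers that of the leukocyte integrins to −0.42. The median of the laminins also turned with a filter of 5 TPM (0.067), with array weights (0.16) and without H3 and H4 (0.19), and that of the other integrins with array weights (0.15).

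With each library left out in turn, 0 to 1 genes and 0 members passed, and 1 to 4 members had an unadjusted p under 0.05. The median of the laminins was −0.40 to 0.36 and that of the integrins other than leukocyte integrins −0.46 to 0.10, the highest in both without H3. Log2 fold changes were −0.15 to 0.17 for *Itga4*, −0.65 to 0.22 for *Itga6*, −0.46 to 0.36 for *Itgad*, −0.19 to 0.18 for *Itgb1*, −0.34 to 0.78 for *Lama4*, −0.66 to 0.37 for *Lamb2* and −0.69 to 0.36 for *Lamb3*. The *Itgb2* ratio was −0.46 to −0.34 and the *Lamb1* to *Lamb2* ratio 1.09 to 2.49.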
